A study of Mus musculus with 4 samples.

Results

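The 9 genes described here encode surface proteins that blood vessel endothelium uses to bind leukocytes or to hold its own junctions closed: Vcam1, Icam1, Icam2, Sele, Selp, Pecam1, Cdh5, Cd34 and Mcam. They were taken as a list by name, and all 9 were found by Ensembl identifier among the 27998 genes of each of 4 single-cell RNA libraries from the aorta of C57BL/6 mice. The young arch library held intimal cells of the aortic arch pooled from 8 mice. The aged adventitia library held cells of the outer layer of the aorta, and the labels do not give its number of mice. The aged descending libraries a and b each held intimal cells of the descending aorta pooled from 6 mice. No allele, transgene or treatment of the animals is named for any library, and young and aged are the words of the titles, with no age given. For the intima, the outer layer was removed and the opened aorta was treated with trypsin. The inner surface was then scraped into a buffer with actinomycin D, which blocks transcription, and red cells were lysed. The labels give these same steps for the adventitia. Only the descending aorta had more than 1 library. In arch over descending, both intimal, region, age and library therefore cannot be told apart. In adventitia over descending, both titled aged, layer, library and any difference of region cannot be told apart.

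Leukocytes leave the blood in steps. The selectins Sele (E-selectin) and Selp (P-selectin) slow passing cells by binding sugar-bearing ligands such as Selplg, the immunoglobulin-like proteins Icam1, Icam2 and Vcam1 then hold them through leukocyte integrins, and the cells cross the vessel wall between or through endothelial cells, past Pecam1, Cdh5 (VE-cadherin) and Mcam. Cd34 is a sialomucin of endothelium, blood progenitors and many fibroblasts. Cytokines that act through NF-kB are known to raise Vcam1, Icam1 and Sele in endothelium, and Vcam1 on arterial endothelium is known from mouse models of atherosclerosis.

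Sele (chromosome 1, 164048234 to 164057677, plus strand, GRCm38 with GENCODE M21 annotation) and Selp (chromosome 1, 164115264 to 164150026, plus strand) lie close together on chromosome 1. Icam2 (106377656 to 106388075) and Pecam1 (106654217 to 106750628) share the minus strand of chromosome 11. Vcam1 spans 116109949 to 116129688 on the minus strand of chromosome 3, and Icam1 spans 21015985 to 21028817 on the plus strand of chromosome 9. Promoter sequences are shown for Icam1, Sele and Selp, the searched genes that held a match to the motif named next. They are the 250 bases before the RefSeq gene starts (GRCm38.p6, plus strand), at chr9:21015690-21015939, chr1:164047984-164048233 and chr1:164115014-164115263. Capitals mark each match to GGNNNTTCC, a loose form of the NF-kB motif searched on both strands, with the other letters in lower case.
Icam1: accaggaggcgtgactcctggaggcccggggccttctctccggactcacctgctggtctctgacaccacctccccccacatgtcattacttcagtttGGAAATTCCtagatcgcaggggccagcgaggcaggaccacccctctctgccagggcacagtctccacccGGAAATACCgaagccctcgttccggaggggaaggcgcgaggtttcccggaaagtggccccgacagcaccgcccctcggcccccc
Sele: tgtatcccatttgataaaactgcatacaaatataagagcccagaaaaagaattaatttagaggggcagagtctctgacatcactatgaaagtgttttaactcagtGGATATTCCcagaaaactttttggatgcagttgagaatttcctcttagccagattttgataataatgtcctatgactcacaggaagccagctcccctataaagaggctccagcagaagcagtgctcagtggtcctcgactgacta
Selp: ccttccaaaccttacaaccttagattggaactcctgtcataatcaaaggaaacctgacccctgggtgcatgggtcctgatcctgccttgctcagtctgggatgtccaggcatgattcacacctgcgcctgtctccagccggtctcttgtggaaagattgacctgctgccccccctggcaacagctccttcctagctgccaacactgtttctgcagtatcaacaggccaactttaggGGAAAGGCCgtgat
Icam1 held 2 matches, and Sele and Selp held 1 each, which began 145 bases before the start of Sele and 14 bases before that of Selp. The set of RefSeq promoters used here had an entry for 5 of the 9 genes, of which these 3 held a match and Cd34 and Mcam held none. Vcam1, Icam2, Pecam1 and Cdh5 had no entry in that set and were not searched. Among all 32851 mouse promoters of the same length, 15.7% held one, and a match is a description of letters only.

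The files held 2187 barcodes in the arch library, 9347 in the adventitia, 2095 in descending a and 2178 in descending b, with 13181305 to 29370967 unique molecular identifiers (UMIs, one per captured RNA molecule) a library. After filters and removal of likely doublets, 2122, 7899, 1978 and 2095 cells remained in the same order. Levels are given in CPM, the UMIs of a gene scaled to the total of its class in a library (counts per 1000000). Cells were clustered without the 9 genes and named from marker lists that did not hold them, so names such as endothelial-like rest on other RNA. Endothelial-like cells numbered 1256 in the arch, 345 in the adventitia, 1476 in descending a and 1294 in descending b, with median depths of 8463.5, 3021, 5729.5 and 5383.5 UMIs. All 17 endothelial markers were detected in this class in every library, with summed levels of 7388, 7909, 9219 and 9215 CPM. Any 2 libraries shared between 4 and 31 barcodes. Intervals are exact 95% Poisson intervals for levels and exact 95% Clopper-Pearson intervals for shares, which cover counting error only.

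Vcam1 RNA in the endothelium of the young arch lay between the values of the 2 aged descending libraries, and of the 9 genes Mcam was the 1 that passed the test between them. Vcam1, the ligand of the leukocyte integrin made of Itga4 and Itgb1, had 1087 CPM (1068 to 1105) in arch endothelium, against 1063 (1043 to 1083) in descending a and 1132 (1110 to 1155) in descending b. The arch lay between the descending libraries. Its log2 fold change was 0.06 ± 0.16 (SE), with an adjusted p of 0.885 in the quasi-likelihood test of edgeR, adjusted by the Benjamini-Hochberg method over all genes tested, as is every adjusted p below that names no other tool. The sign of this near-zero difference turned without the TMM scaling factor (-0.014), with separate clustering per library (-0.00064) and within the cluster led by Serpina1b and Klk10 (-0.031). When every cell was thinned to 2000 UMIs, 78.9% of arch cells (76.5 to 81.1), 73.9% of descending a cells (71.5 to 76.1) and 74.9% of descending b cells (72.4 to 77.4) held a Vcam1 UMI, against 96.9%, 90.7% and 88.3% before thinning. Red-cell-like barcodes, which should lack the gene, held one after thinning in 14.3% (6.38 to 26.2) of 56 in the arch and 17.1% (7.15 to 32.1) of 41 in descending a.

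**Figure D1:**
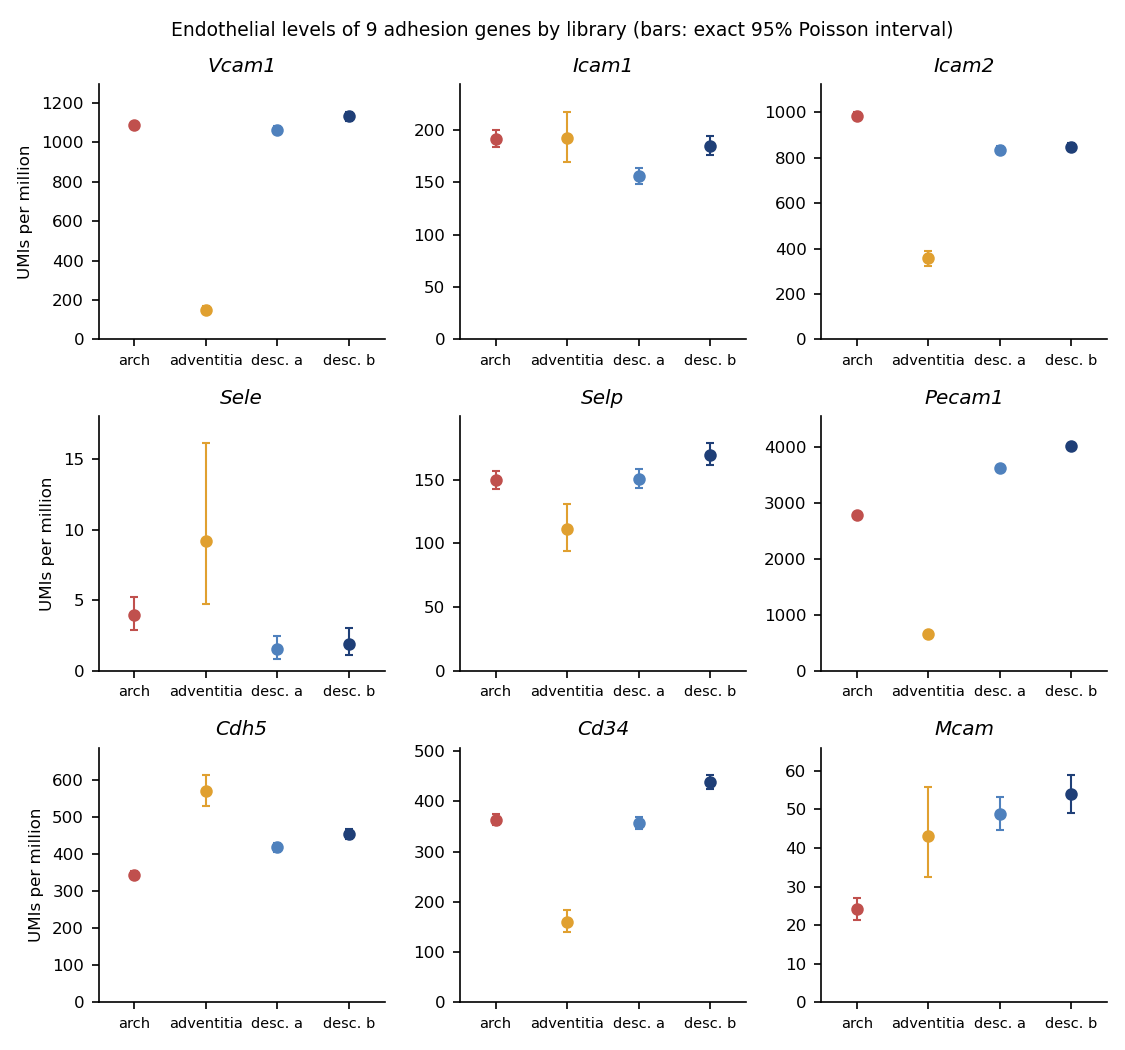
Level of each of the 9 genes in endothelial-like cells, in CPM (y axis, from 0), for the arch, adventitia, descending a and descending b libraries (x axis); points are library values and bars are exact 95% Poisson intervals. Vcam1 sits between 1063 and 1132 in the intimal libraries and at 148 in the adventitia, while Cdh5 is highest in the adventitia at 571.

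Neither of the other immunoglobulin-like ligands passed the test in the arch. Icam1, which binds the leukocyte integrins built on Itgb2, had 192 CPM in arch endothelium (184 to 199.6), against 156 (149 to 164) in descending a and 185 (176 to 194) in descending b. The arch value was the highest, but its interval overlapped that of descending b. The log2 fold change was 0.24 ± 0.16 (SE, edgeR adjusted p = 0.408), and it was -0.037 within the cluster led by Nkx2-3 and Mal. Icam2, a constitutive endothelial ligand of the same integrins, had 985 CPM in the arch, against 834 and 848 in the descending libraries. The arch stood above both descending values, with a log2 fold change of 0.30 ± 0.16 (SE, edgeR adjusted p = 0.266).

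Neither selectin passed the test in arch endothelium at the main settings, and Selp RNA was far more abundant than Sele RNA there. Selp, which is stored in Weibel-Palade bodies and moved to the surface on activation, had 149.6 CPM in arch endothelium, against 150.4 in descending a and 169.7 in descending b. The arch lay just under descending a, and descending b was higher. The log2 fold change was -0.03 ± 0.16 (SE, edgeR adjusted p = 0.951). Its sign turned on thinning (0.065) and within the Nkx2-3 Mal (0.074) and Serpina1b Klk10 (0.052) clusters. Sele, which endothelium makes on activation by cytokines, was rare, with 48 UMIs in 1256 arch cells, against 16 UMIs in 1476 cells of descending a and 17 UMIs in 1294 cells of descending b. These were 3.94 (2.90 to 5.22), 1.52 (0.870 to 2.47) and 1.91 (1.11 to 3.06) CPM. The arch was above both descending values, with a log2 fold change of 1.27 ± 0.44 (SE) that missed the threshold of 0.05 (edgeR adjusted p = 0.0724). It passed without the filter on low counts (edgeR adjusted p = 0.0374) and in cells with at most 5% mitochondrial UMIs (edgeR adjusted p = 0.0353). After thinning, 5 of 1256 arch cells held a Sele UMI (0.398%, 0.129 to 0.927). In descending a 3 of 1428 cells did (0.210%, 0.0433 to 0.613) and in descending b 4 of 1209 (0.331%, 0.0902 to 0.845), so these intervals overlapped. No fibroblast-like, macrophage-like, mesothelial-like or red-cell-like barcode held a Sele UMI in any library with at least 20 cells of that class. In the 1441 adventitial fibroblast-like cells, 3 UMIs, taken throughout as the limit that a count of 0 allows, would be 0.596 CPM.

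Of the junction proteins, Mcam fell in the arch and the others did not pass the test. Mcam (CD146), a junction protein of endothelium that pericytes also carry, had 24.1 CPM (21.4 to 27) in arch endothelium, against 48.8 (44.7 to 53.2) in descending a and 53.9 (49.2 to 59.0) in descending b. The arch lay below both descending libraries and the intervals did not overlap. The log2 fold change was -1.02 ± 0.16 (SE, edgeR adjusted p = 1.47e-04). The call ended with DESeq2 (adjusted p = 0.327), and when cells with a UMI of another class were left out Mcam had no value and none of the 9 genes was called. The libraries filled the endothelial clusters unequally: the Nkx2-3 Mal cluster held 93 of 1256 cells in the arch, against 805 of 1476 in descending a and 757 of 1294 in descending b, and the Serpina1b Klk10 cluster held 579 in the arch, against 69 and 104. Within the first the log2 fold change of Mcam was -0.56 (edgeR adjusted p = 0.588), and within the second it was -1.39 (edgeR adjusted p = 0.00208). Pecam1, which binds itself across junctions and on crossing leukocytes, had 2780.4 CPM in the arch, against 3628 and 4018, below both descending values (log2 fold change -0.39 ± 0.17 SE, edgeR adjusted p = 0.166). Cdh5, the cadherin of endothelial adherens junctions, had 343 CPM in the arch, against 418 and 454, also below both (log2 fold change -0.27 ± 0.16 SE, edgeR adjusted p = 0.334). Cd34 had 364 CPM in the arch, against 357 and 439, between the descending values (log2 fold change -0.06 ± 0.17 SE, edgeR adjusted p = 0.89).

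In all, 1 of 9 members passed in arch over descending endothelium, none higher and 1 lower, where 10.2% of the 12952 genes tested passed, 5.63% higher and 4.55% lower. A single call among 9 is close to that background. The median log2 fold change of the 9 was -0.03, against -0.01 for all genes tested. In arch endothelium the 11 macrophage markers summed to 317 CPM, against 168 and 154 in descending a and b, and the 7 smooth muscle markers to 571, against 183 and 149.7, with none of them at 0. Their part in these results was not tested.

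**Figure D2:**
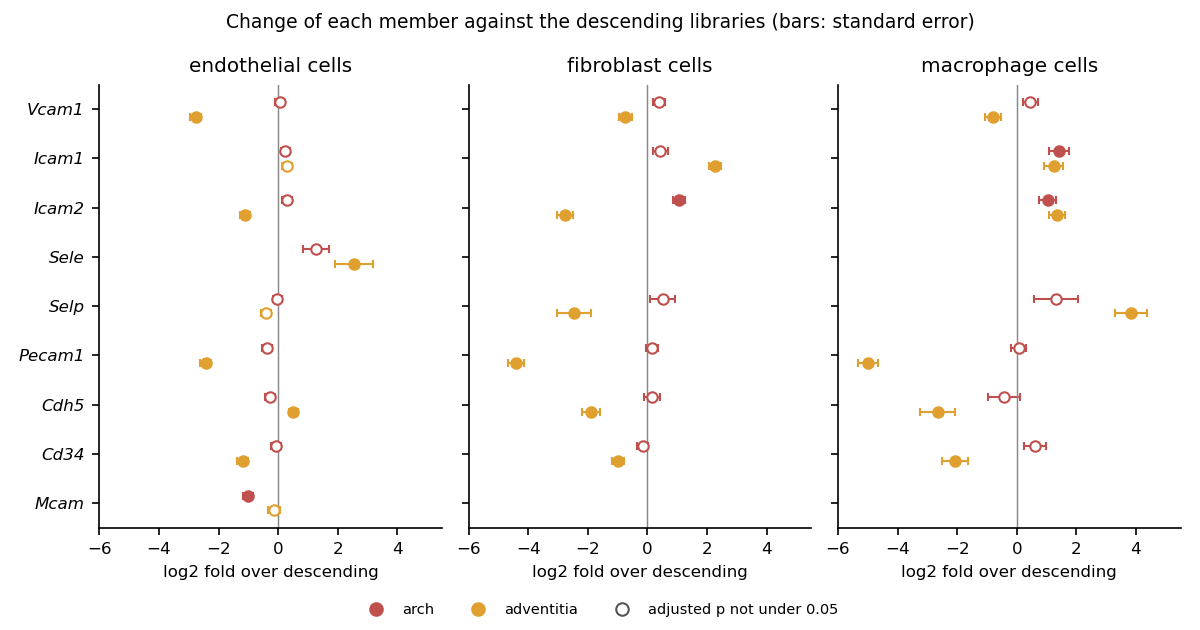
Log2 fold change of each of the 9 genes (y axis) over the 2 descending libraries (x axis) for the arch (red) and the adventitia (orange), in endothelial-like, fibroblast-like and macrophage-like cells; bars are standard errors and open points have an edgeR adjusted p not under 0.05. In endothelial-like cells Mcam is the only filled arch point (-1.02), while 6 adventitial points are filled, from -2.77 for Vcam1 to 2.54 for Sele.

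The clusters of intimal endothelium differed in Vcam1, Icam1 and Selp more than the libraries did. These clusters were made without the 9 genes, but from the same cells, so their levels are given as a description. The cluster led by Edn1 and Inhba was found in both descending libraries, with 126 and 136 cells, and had the highest intimal Vcam1: 1369.5 CPM (1305 to 1436) in descending a and 1785 (1714 to 1858) in descending b. Its 11 arch cells had 591 CPM (396 to 849). The cluster led by Adra2a and Col8a1, with 448 and 280 cells, had the lowest of the main descending clusters, at 865 (835 to 895) and 859 (821 to 898). Icam1 was also higher in the Edn1 Inhba cluster, at 282 and 349.7 CPM, than in the Adra2a Col8a1 cluster, at 122 and 127. Within each descending library Selp was also highest in the Edn1 Inhba cells among the intimal clusters, at 194 and 254 CPM in descending a and b.

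In the arch, the cluster led by Edn1 and Bmp4 (566 cells, against 8 and 12 in descending a and b) and the cluster led by Serpina1b and Klk10 (579 cells) held most endothelial cells. Icam1 had 234 CPM (223 to 246) in the first and 139 (129 to 150.04) in the second. Vcam1 was close in both, at 1112 and 1063. The Edn1 Bmp4 cluster also held 38 of the 48 Sele UMIs of arch endothelium, but it held 6649526 of the 12196339 UMIs of all genes there. Its cells were deeper, with a median of 10707 UMIs against 7762 in the Serpina1b Klk10 cluster. Scaled to all UMIs, Sele had 5.71 CPM (4.04 to 7.84) in the Edn1 Bmp4 cluster, against 2.00 (0.961 to 3.69) in the Serpina1b Klk10 cluster. After thinning, 2 of the 566 Edn1 Bmp4 cells and 3 of the 579 Serpina1b Klk10 cells held a Sele UMI, too few to compare the clusters. Mcam was lowest in the Serpina1b Klk10 cluster in each intimal library, at 12.0 CPM (9.18 to 15.5) in the arch, 28.4 (15.9 to 46.9) in descending a and 36.4 (24.6 to 52.0) in descending b. Within that cluster the arch was thus again below both descending libraries. In the descending libraries the Edn1 Inhba cells, highest in Vcam1, had the least Pecam1 among the main intimal clusters, 2690.03 and 3024 CPM. The Adra2a Col8a1 cells, lowest of these in Vcam1, had 3846 and 4237. The order was not opposite throughout, since Pecam1 in descending b was highest in the Serpina1b Klk10 cells, at 4325.

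**Figure D3:**
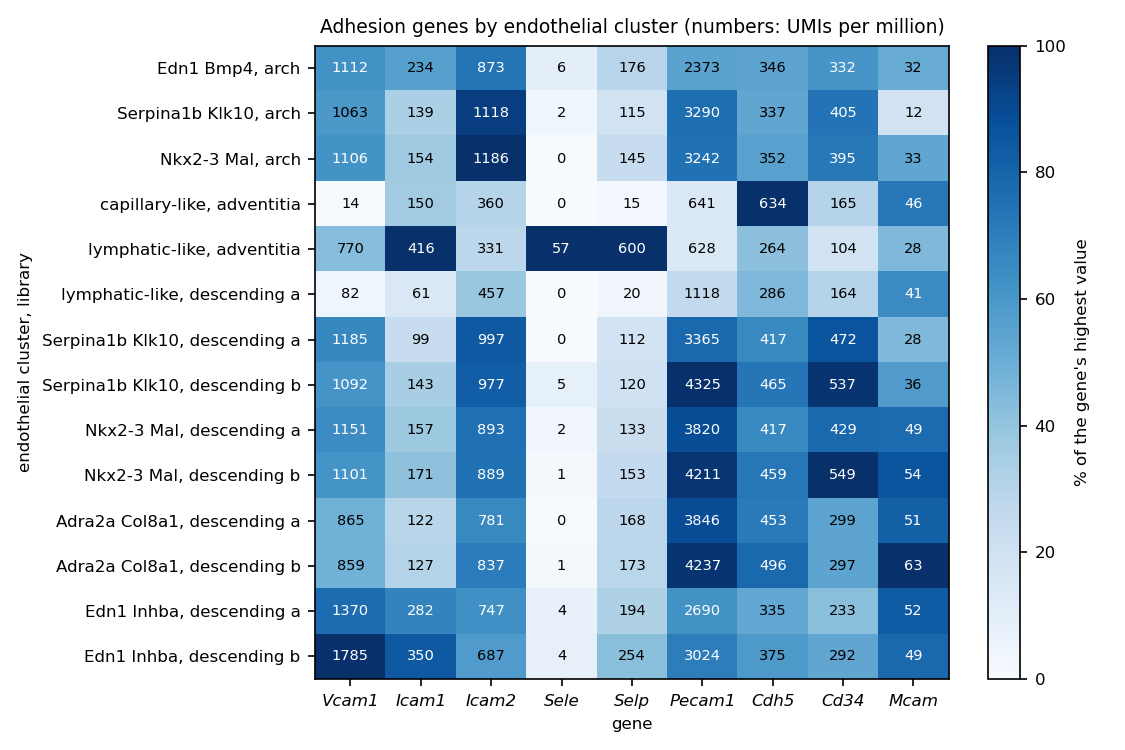
Level of the 9 genes (columns) in each endothelial cluster of each library with enough cells (rows), in CPM as printed; the shade gives the level as a percentage of the gene's highest value. Vcam1 is darkest in the Edn1 Inhba cells of descending b (1785) and palest in the capillary-like cells of the adventitia, and Sele and Selp are darkest in the lymphatic-like cells of the adventitia.

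Adventitial endothelium carried a different set. In the 345 endothelial-like cells of the adventitia, Vcam1, Pecam1, Icam2 and Cd34 fell and Cdh5 and Sele rose relative to descending intima, so 6 of 9 members passed, 2 higher and 4 lower, where 34.3% of the 12952 genes passed, 17.9% higher and 16.3% lower. The median log2 fold change over the 9 was -0.40, against -0.12 over all genes; this median for all genes was -0.23 without the TMM factor and -0.05 with RLE factors, and the values below are to be read against it. Vcam1 had 148 CPM (128 to 171) in the adventitia, against 1063 and 1132 in the descending libraries, a log2 fold change of -2.77 ± 0.19 (SE, edgeR adjusted p = 1.63e-10). Pecam1 had 651 (608 to 696), against 3628 and 4018, with a log2 fold change of -2.43 ± 0.19 (SE, edgeR adjusted p = 1.04e-09). Both groups stood clear of each other for these genes. Icam2 had 357 CPM, against 834 and 848 (log2 fold change -1.11 ± 0.17 SE, edgeR adjusted p = 2.0e-05), and Cd34 had 160.5, against 357 and 439 (log2 fold change -1.19 ± 0.19 SE, edgeR adjusted p = 2.8e-05).

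Cdh5 had 571 CPM (531 to 614) in adventitial endothelium, against 418 and 454 in descending a and b, a log2 fold change of 0.51 ± 0.16 (SE, edgeR adjusted p = 0.0154). That call ended without the TMM factor (0.0567), with DESeq2 (0.0832), with doublets kept (0.0564) and without cells that held a UMI of another class (0.0619), each given as an adjusted p. Sele had 12 UMIs in adventitial endothelium, 9.21 CPM (4.76 to 16.1), against 1.52 and 1.91, a log2 fold change of 2.54 ± 0.63 (SE, edgeR adjusted p = 0.00318). With DESeq2 its adjusted p was 0.0899, and after thinning its edgeR adjusted p was 0.149. Icam1 had 192 CPM in the adventitia, against 156 and 185 (edgeR adjusted p = 0.203), and Mcam had 43.0, against 48.8 and 53.9 (edgeR adjusted p = 0.66). Selp had 111 CPM (94.0 to 131), against 150.4 and 169.7 (edgeR adjusted p = 0.0922). It passed without the TMM factor (log2 fold change -0.52, edgeR adjusted p = 0.026), and its sign turned in cells with at most 5% mitochondrial UMIs (0.082). Among all classes, Cdh5 was highest in adventitial endothelium, while Pecam1 there was the lowest of the endothelial libraries.

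The adventitial class joined mainly 2 clusters, which differed widely in Vcam1, Selp and Sele. Their Pecam1 was close, at 641 CPM in the capillary-like and 628 in the lymphatic-like cluster. The 301 cells of a capillary-like cluster, in which all 7 capillary markers were found in at least 20% of cells, had 13.9 CPM of Vcam1 (7.80 to 23.0), 14.9 of Selp (8.50 to 24.1) and no Sele UMI, where 3 UMIs would be 2.79. Those cells had the highest Cdh5 of any endothelial cluster, 634 CPM (588 to 684). The 40 cells of a lymphatic-like cluster, in which all 7 lymphatic, 5 of 7 capillary and 5 of 6 venous markers were found in at least 20% of cells, had 769.8 CPM of Vcam1 (656 to 898), 599.8 of Selp (500.03 to 714), 416 of Icam1 (333 to 512) and 56.7 of Sele (29.3 to 99.0). These 40 cells gave 163 of the 193 Vcam1 UMIs, 127 of the 145 Selp UMIs, 88 of the 250 Icam1 UMIs and all 12 Sele UMIs of the class. Selp lay in 21 and Sele in 5 of the 40 cells, and whether these cells are 1 kind of endothelium was not tested. The 20 cells of the same cluster in descending a had 81.8 CPM of Vcam1 (42.3 to 143), 20.5 of Selp (4.22 to 59.8) and no Sele.

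Without the lymphatic-like cells, Vcam1 in adventitial over descending endothelium had a log2 fold change of -5.22 (edgeR adjusted p = 4.39e-07), and Selp fell by 3.18 on the log2 scale (edgeR adjusted p = 1.37e-05). The log2 fold change of Icam1 was then -0.098, against 0.29 with them. No fold is given for Sele, since the remaining adventitial cells held no UMI of it. In adventitial endothelium the 7 capillary markers summed to 38192 CPM, against 430.5 and 581 in the descending libraries, and the 7 lymphatic markers to 568, against 240.1 and 89.7. The 11 macrophage markers summed to 1096, against 168 and 154, and the 5 red cell markers to 8916, against 1429.7 and 884, with none at 0. The part of the macrophage and red cell RNA in these results was not tested. When cells with a UMI of another class were left out, the log2 fold change of Selp was -2.62 (edgeR adjusted p = 2.3e-04).

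Vcam1 and Icam1 met in the same cells about as often as their separate shares give in arch endothelium. After thinning, an endothelial-like cell held UMIs of 4.23 members on average in the arch, 2.62 in the adventitia, 4.17 in descending a and 4.30 in descending b, with medians of 4, 3, 4 and 4. In the arch, 276 of 1256 cells held both Vcam1 and Icam1, 21.97% of cells, where the product of the 2 shares is 21.99%. In the adventitia, 12 of 266 cells held both Vcam1 and Selp, 4.51%, where the product is 0.91%. Those 2 genes shared the lymphatic-like cluster, as given above.

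Lists of genes that act with the members were compared in the same fits. In arch over descending endothelium, 1 of 18 tested junction genes rose and 6 fell, with a list median of -0.21 against -0.01 over all genes, where 5.63% of all genes rose and 4.55% fell. Ocln, a tight junction protein, had 9.35 CPM in the arch, against 27.5 and 36.2 (log2 fold change -1.69 ± 0.22 SE, edgeR adjusted p = 1.15e-05). Cldn5, the main claudin of endothelium, had 528, against 1132 and 1156 (log2 fold change -1.05 ± 0.17 SE, edgeR adjusted p = 1.6e-04). Cx3cl1, a membrane-bound chemokine that binds monocytes, had 22.1, against 47.5 and 44.6 (log2 fold change -0.98 ± 0.16 SE, edgeR adjusted p = 2.3e-04). All 3 lay below both descending libraries, and Bst1 lay above them, with 12.1 CPM in the arch, against 3.80 and 6.19 (log2 fold change 1.35 ± 0.30 SE, edgeR adjusted p = 0.00413). With DESeq2 the calls of Ocln (adjusted p = 0.106), Cx3cl1 (0.609) and Bst1 (1.0) ended, and within the Nkx2-3 Mal cluster Ocln, Cx3cl1 and Cldn5 did not pass (edgeR adjusted p = 0.253, 0.337 and 0.647). Of 5 tested sialomucins of the Cd34 kind, 1 rose and none fell: Emcn, an endothelial sialomucin, had 399.7 CPM in the arch, against 235 and 195.5 (log2 fold change 0.96 ± 0.16 SE, edgeR adjusted p = 2.5e-04), with a log2 fold change of -0.14 within the Nkx2-3 Mal cluster.

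Of 21 tested genes of the NF-kB and cytokine response 1 rose and 5 fell in the arch, beside 5.63% higher and 4.55% lower over all genes. Cxcl2, a chemokine for neutrophils, had 85.5 CPM in arch endothelium, against 24.2 and 21.9 (log2 fold change 1.96 ± 0.15 SE, edgeR adjusted p = 2.02e-08). The cytokine receptor Il1r1 had 8.12, against 19.0 and 17.6 (log2 fold change -1.10 ± 0.23 SE), and Bcl3 and Traf1, which act within the NF-kB pathway, had log2 fold changes of -1.07 ± 0.25 and -0.82 ± 0.20 (SE). The calls of Il1r1, Bcl3 and Traf1 ended with DESeq2 (adjusted p = 0.921, 0.855 and 1.0) and after thinning (edgeR adjusted p = 0.060, 0.124 and 0.0981). Of 16 Weibel-Palade body genes 2 rose and 3 fell. Plat, the plasminogen activator released by endothelium, had 55.8 CPM in the arch, against 178 and 272, and Myrip and Unc13d, which act in granule transport and release, had log2 fold changes of -1.31 ± 0.16 and -0.97 ± 0.21 (SE), of which Unc13d did not pass with DESeq2 (adjusted p = 1.0) or after thinning (edgeR adjusted p = 0.27). Igfbp7, a secreted protein kept in these granules, had 777 in the arch, against 235 and 269 (log2 fold change 1.69 ± 0.16 SE, edgeR adjusted p = 1.6e-07).

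Of 15 docking partners 2 rose and none fell in arch endothelium, namely Src (log2 fold change 1.66 ± 0.39 SE), a kinase downstream of adhesion, and the actin linker Vcl (0.58 ± 0.15 SE), which had -0.42 within the Nkx2-3 Mal cluster. Of 7 sheddases and phosphatases 1 rose, the leukocyte phosphatase Ptpn6 (log2 fold change 1.79 ± 0.46 SE), and none fell. The calls of Src, Vcl and Ptpn6 ended with DESeq2 (adjusted p = 1.0 for each) and after thinning (edgeR adjusted p = 0.393, 0.194 and 0.491). Of 13 counter-receptors 1 rose and 1 fell. Selplg, a leukocyte ligand of selectins, had 5.66 CPM in the arch, against 0.951 and 0.788 (adjusted p = 0.131 with DESeq2), and Itgb3 had 3.53, against 23.9 and 15.1. Of 16 transcription factors known at these promoters none rose and 3 fell, and Sox18 had 10.8 CPM in the arch, against 44.5 and 138 in descending libraries that themselves stood apart; its log2 fold change was -3.59 without descending a and -1.97 without descending b. Gata2 and Ets1 had log2 fold changes of -0.79 ± 0.17 and -0.64 ± 0.20 (SE), and that of Ets1 was 0.32 within the Nkx2-3 Mal cluster. With DESeq2 the calls of Sox18 (adjusted p = 0.417), Gata2 (0.207) and Ets1 (1.0) ended, and that of Ets1 also ended with doublets kept (edgeR adjusted p = 0.17), with separate clustering per library (0.24) and after thinning (0.101). Of the 21 arch list genes given here, 14 lost their call with DESeq2 and 8 of 20 after thinning, as did 13 of 15 within the Nkx2-3 Mal cluster and 9 of 18 within the Serpina1b Klk10 cluster. The lists were chosen with results of these data known.

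In adventitial over descending endothelium the same lists moved more, as did the genes at large. Of 21 NF-kB and cytokine genes 9 rose and 2 fell, with a list median of 0.49 against -0.12 over all genes, where 17.9% of all genes rose and 16.3% fell. The inhibitor Nfkbia, itself induced by NF-kB, had 1095 CPM in the adventitia, against 346 and 412 (log2 fold change 1.65 ± 0.16 SE, edgeR adjusted p = 2.99e-08). The monocyte chemokine Ccl2 had 63.0, against 2.38 and 5.63 (log2 fold change 4.12 ± 0.37 SE, edgeR adjusted p = 1.08e-08), Cxcl2 had a log2 fold change of 3.12 ± 0.17 (SE), and Tnfaip2 had -2.92 ± 0.25 (SE). Of 16 Weibel-Palade genes 4 rose and 9 fell, with a list median of -1.10. Vwf, the main content of these granules, had 175 CPM in the adventitia, against 1042 and 994 (log2 fold change -2.42 ± 0.19 SE, edgeR adjusted p = 9.13e-10), and Myrip had -3.58 ± 0.28 (SE). Cd63 had -1.46 ± 0.18 (SE), and Igfbp7 was far above the descending libraries, at 2147 against 235 and 269.

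Junction genes split in the adventitia, with 4 of 18 higher and 5 lower. Nectin2 and Jam3, adhesion proteins of cell contacts, had log2 fold changes of 3.23 ± 0.21 and 2.70 ± 0.34 (SE), Jup, which links cadherins to the skeleton of the cell, had 1.25 ± 0.16 (SE), and Cx3cl1 had -2.32 ± 0.32 (SE). Of 5 sialomucins 1 rose and 3 fell, with Emcn at 1.06 ± 0.17, Podxl at -0.51 ± 0.17 and Cd164 at -0.50 ± 0.19 (log2 fold change, SE). Podxl and Cd164 did not pass with DESeq2 (adjusted p = 0.29 and 0.48) or after thinning (edgeR adjusted p = 0.0766 and 0.103), nor did Cd164 with RLE size factors (0.0763). Of 16 transcription factors 8 rose and 5 fell: Ets1 and Ets2 had 2.99 ± 0.19 and 2.60 ± 0.17 (log2 fold change, SE), Nr2f2, known as a venous factor, had 4.39 ± 0.34 (SE) from 93.7 CPM in the adventitia, against 6.85 and 2.59 in descending a and b, and Lmo2 had -2.83 ± 0.20 (SE). Of 15 docking partners 4 rose and 3 fell, with the tetraspanin Cd9 at -1.43 ± 0.17, Actn1 at -0.87 ± 0.18 and the exchange factor Arhgef26 at 2.94 ± 0.44 (log2 fold change, SE). Of 7 sheddases and phosphatases 2 rose and 3 fell. Ptprb (VE-PTP), the phosphatase that acts on Cdh5, had 412 CPM in the adventitia, against 1660.1 and 1569.8, the protease Adam10 had a log2 fold change of -1.30 ± 0.19 (SE), and Ptpn6 and Ptpn11 had 3.64 ± 0.59 and 0.81 ± 0.19 (SE), of which Ptpn11 did not pass with DESeq2 (adjusted p = 0.107) or after thinning (edgeR adjusted p = 0.073). Of 13 counter-receptors 6 rose and 3 fell, among them the leukocyte genes Selplg (4.30 ± 0.57), Itgb2 (3.17 ± 0.67) and Itgb7 (3.33 ± 0.72), and Glg1, a ligand of Sele, had -1.13 ± 0.24 (log2 fold change, SE). Leaving out a descending library moved Nr2f2 to 5.31 (without a) or 3.90 (without b) and Ccl2 to 4.85 (without b). Without the lymphatic-like cells 7 of these 30 list genes moved by over 1.5 times, among them Vwf at -4.89. Macrophage markers were higher in this class, as given above.

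Outside endothelium, Vcam1 was next highest in macrophage-like cells. It had 249 CPM (217 to 284) in 115 arch cells, 96.0 (84.6 to 109) in 669 adventitial cells, 207 (162 to 262) in 81 cells of descending a and 179 (138 to 229) in 70 cells of descending b. The arch and descending intervals overlapped and the adventitia lay below them. In arch over descending macrophages the log2 fold change of Vcam1 was 0.46 ± 0.26 (SE, edgeR adjusted p = 0.421), and it was -0.053 after thinning and -0.44 within the intima resident-like cluster. In adventitial over descending macrophages it was -0.81 ± 0.27 (SE, edgeR adjusted p = 0.0214). That call ended with DESeq2 (adjusted p = 0.912), without the filter on low counts (edgeR adjusted p = 0.181), with separate clustering per library (0.918) and without the adventitial cluster led by Serpinb2 and Alox15 (0.662). In the Lyve1 resident-like cluster alone the value was 0.63 (edgeR adjusted p = 0.176).

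**Figure D4:**
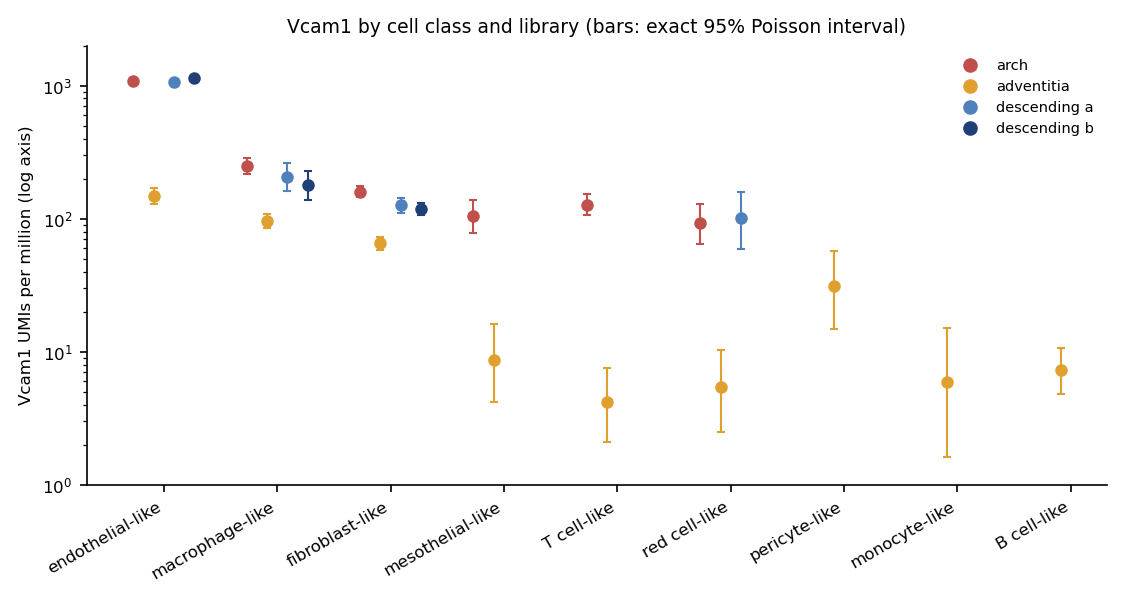
Vcam1 level in CPM (y axis, log scale) by cell class (x axis) and library (colour) for classes with at least 20 cells; points are library values and bars are exact 95% Poisson intervals. Endothelial-like cells of the 3 intimal libraries stand alone at the top, adventitial endothelium (148) lies within the range of intimal fibroblast-like and macrophage-like cells, and red-cell-like barcodes lie at 93.3 in the arch and 101 in descending a.

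The macrophage types differed. Intima resident-like macrophages, named from markers such as Itgax and Mmp12 and not seen in the adventitia, had 292 Vcam1 CPM (253 to 336) in 75 arch cells, 449.6 (335 to 591) in 25 cells of descending a and 350.02 (241 to 492) in 18 cells of descending b. Lyve1 resident-like macrophages had 106 (66.6 to 161) in 40 arch cells, 136 (119 to 154) in 550 adventitial cells, 87.3 (53.3 to 135) in 56 cells of descending a and 116 (78.6 to 166) in 52 cells of descending b. The 119 adventitial cells led by Serpinb2 and Alox15 had 3.77 (0.778 to 11). The intima resident-like cells thus stood above the Lyve1 resident-like cells in each of the 3 intimal libraries.

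Free RNA of endothelium was read from Pecam1. If free RNA came from endothelium alone, its genes would keep 1 ratio in every class of a library. The share of Vcam1 in the sum of Vcam1 and Pecam1 UMIs was therefore compared with that of the library's endothelium. This was 28.1% in the arch, 18.5% in the adventitia, 22.7% in descending a and 22.0% in descending b. The reading has limits: Icam2 took 41.2% (33.5 to 49.3) in arch red-cell-like barcodes, against 26.2% in endothelium. Vcam1 took 47.4% (24.4 to 71.1) in adventitial red-cell-like barcodes, from 9 Vcam1 and 10 Pecam1 UMIs, against 18.5% in endothelium there. Pecam1 was also at 44.6 CPM in T cells and 35.8 in B cells of the adventitia, against 6.04 in red-cell-like barcodes. A share somewhat above endothelium thus does not show RNA of the class itself. Lyve1 resident-like macrophages had 26.2% (17.2 to 36.9) in the arch, 23.0% (14.6 to 33.2) in descending a and 25% (17.5 to 33.7) in descending b, close to endothelium. Intima resident-like macrophages had 47.6% (42.7 to 52.5), 57.3% (46.4 to 67.7) and 53.2% (40.1 to 66.0), above endothelium in each intimal library. In the adventitia, where Pecam1 was at 19 UMIs in the 550 Lyve1 resident-like cells beside 251 of Vcam1, the share was 93.0% (89.2 to 95.7). Vcam1 in these adventitial macrophages and in the intima resident-like type exceeded the endothelial ratio, and in intimal Lyve1 resident-like macrophages it was not distinguishable from it.

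Fibroblast-like cells had a Vcam1 share of 37.1% (34.3 to 40.0) in the arch, 86.3% (82.4 to 89.6) in the adventitia, 30.8% (27.6 to 34.3) in descending a and 35.7% (32.8 to 38.7) in descending b, above the endothelium of each library. Whether the intimal excess was RNA of the fibroblast-like cells themselves was not tested.

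In mesothelial-like cells Vcam1 was low. The 44 arch cells had 105 CPM (77.5 to 139) and the 165 adventitial cells had 8.75 (4.19 to 16.1), while the descending libraries held 2 and 0 such cells, so no comparison with them was made. In the arch the share of Vcam1 beside Pecam1 was 29.2% (22.4 to 36.7), that of the endothelium of the library. Red-cell-like barcodes of the arch gave 93.3 CPM (65.0 to 129.7) and a share of 27.1% (19.7 to 35.7), so Vcam1 in arch mesothelial-like cells was at the level of barcodes that should lack it. Adventitial red-cell-like barcodes had 5.44 (2.49 to 10.3), and the interval overlapped that of mesothelial-like cells there. All 8 mesothelial markers were detected in both libraries.

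**Figure D5:**
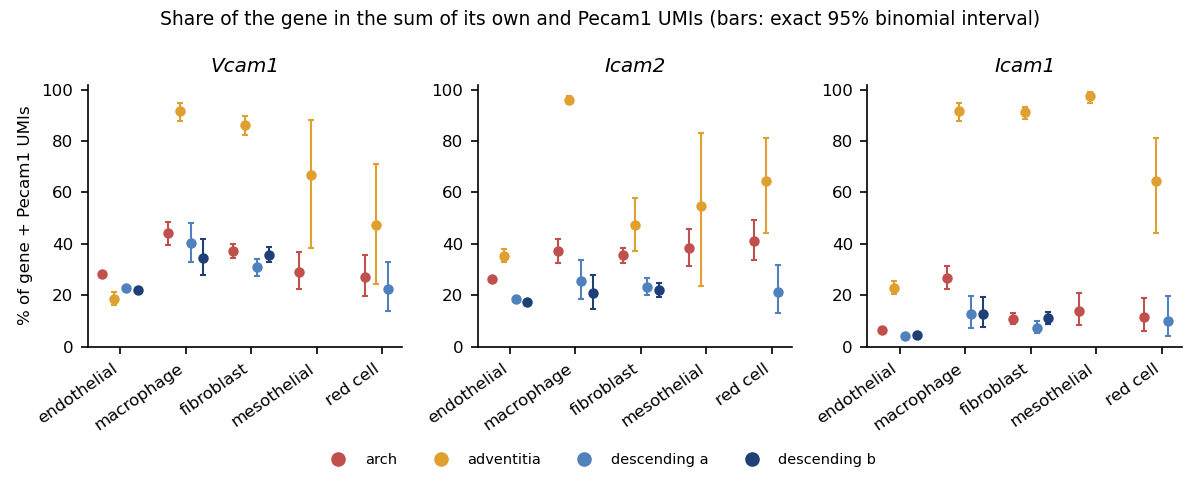
Share (%) of Vcam1, Icam2 or Icam1 in the sum of its own and Pecam1 UMIs (y axis) by cell class (x axis) and library (colour); bars are exact 95% Clopper-Pearson intervals. For Vcam1 the arch mesothelial-like (29.2%) and red-cell-like (27.1%) points lie at the endothelial value of 28.1%, while the macrophage-like point (44.0%) lies above it, and for Icam1 the adventitial macrophage-like, fibroblast-like and mesothelial-like points lie between 91.2% and 97.7%.

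Icam1 was also found outside endothelium. Mesothelial-like cells of the adventitia had 185 CPM (161 to 212), close to endothelium there (192), and those of the arch had 40.6 (24.5 to 63.5). Red-cell-like barcodes had 32.0 CPM (16.5 to 55.9) in the arch, 10.9 (6.44 to 17.2) in the adventitia and 39.1 (15.7 to 80.6) in descending a. The arch mesothelial-like value lay within the first of these intervals. Fibroblast-like cells had 33.1 in the arch, 107 in the adventitia, 22.6 in descending a and 26.5 in descending b. Of these fibroblast-like values, those of the arch and descending a lay within the intervals of red-cell-like barcodes. The adventitia was above all intimal libraries, with a log2 fold change over descending of 2.26 ± 0.21 (SE, edgeR adjusted p = 5.8e-25). Beside Pecam1 the Icam1 share of its fibroblast-like cells was 91.2% (88.6 to 93.3), against 22.8% in endothelium of the library. Adventitial red-cell-like barcodes took 64.3% (44.1 to 81.4), also above endothelium, from 18 Icam1 and 10 Pecam1 UMIs. Icam1 had 115 CPM (94.1 to 140.1) in arch macrophage-like cells. It had 94.9 (83.5 to 107) in those of the adventitia, against 43.8 (24.5 to 72.2) in descending a and 48.3 (28.1 to 77.4) in descending b. Both the arch and the adventitia stood above both descending libraries, of which descending a lay within the interval of its red-cell-like barcodes. The log2 fold changes were 1.42 ± 0.35 (SE, edgeR adjusted p = 0.00175) for the arch and 1.24 ± 0.33 (SE, edgeR adjusted p = 0.0022) for the adventitia. The adventitial call ended with DESeq2 (adjusted p = 0.637) and with separate clustering per library (edgeR adjusted p = 0.0853).

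In macrophages of the arch, 2 of 7 members tested passed, both higher, where 5.43% of the 7313 genes passed, 2.61% higher and 2.82% lower. The second was Icam2, with 187 CPM in the arch, against 105 and 88.1 in the descending libraries, a log2 fold change of 1.04 ± 0.29 (SE, edgeR adjusted p = 0.00831). Neither call held within a macrophage type: Icam1 had 1.41 in intima resident-like cells (edgeR adjusted p = 0.39) and 0.85 in Lyve1 resident-like cells (0.828), and Icam2 had 1.04 (0.247) and 0.71 (0.816). Icam2 also lost its call with DESeq2 (adjusted p = 0.339) and after thinning (edgeR adjusted p = 0.187). Both were also lost without the filter on low counts (edgeR adjusted p = 0.0511 for Icam1 and 0.0903 for Icam2) and with separate clustering per library (0.0771 and 0.445). Beside Pecam1, Icam2 took 37.1% (32.6 to 41.8) in arch macrophages and 41.2% (33.5 to 49.3) in arch red-cell-like barcodes, against 26.2% in arch endothelium. Icam1 took 26.7% (22.3 to 31.4) in arch macrophages and 11.3% (5.99 to 18.9) in arch red-cell-like barcodes, against 6.45% in endothelium.

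In adventitial macrophages all 7 members tested passed, 3 higher and 4 lower, where 13% of the 7313 genes passed, 7.41% higher and 5.59% lower. Selp had 91.1 CPM (80.0 to 103) in the adventitia, against 8.76 (1.81 to 25.6) and 5.68 (0.688 to 20.5), a log2 fold change of 3.84 ± 0.52 (SE, edgeR adjusted p = 1.48e-11), with 3 and 2 UMIs in the descending libraries. Icam2 had 217 in the adventitia, against 105 and 88.1 (log2 fold change 1.37 ± 0.27 SE, edgeR adjusted p = 1.09e-05). The Icam2 call ended with DESeq2 (adjusted p = 0.132), with separate clustering per library (edgeR adjusted p = 0.0596) and after thinning (0.0572). Both rested on the 119 cells led by Serpinb2 and Alox15, a cluster found in the adventitia alone, which had 693 CPM of Icam2 (636 to 754) and 299 of Selp (263 to 339.96). They held 238 of the 241 Selp UMIs and 551 of the 574 Icam2 UMIs of the class. Without those cells the log2 fold change of Icam2 turned to -2.72 (edgeR adjusted p = 1.07e-10). Pecam1 had 8.70 CPM in adventitial macrophages, against 307 and 338 (log2 fold change -5.00 ± 0.35 SE, edgeR adjusted p = 9.6e-44). Cdh5 and Cd34 had log2 fold changes of -2.65 ± 0.59 and -2.07 ± 0.43 (SE), and neither passed with DESeq2 (adjusted p = 0.317 and 0.212). The Cdh5 call also ended with only the compared libraries in the fit (edgeR adjusted p = 0.110) and in Lyve1 resident-like cells (0.148), and the Cd34 call after thinning (0.0533).

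In adventitial fibroblasts all 7 members tested passed as well, 1 higher (Icam1) and 6 lower, where 25.8% of the 11501 genes passed, 14.8% higher and 11% lower. Pecam1 had 10.3 CPM in the adventitia, against 284 and 214 (log2 fold change -4.41 ± 0.28 SE, edgeR adjusted p = 8.7e-55). Both descending values were below that of red-cell-like barcodes in descending a (352), and such barcodes had 6.04 in the adventitia. Icam2, Selp and Cdh5 had log2 fold changes of -2.77 ± 0.26, -2.47 ± 0.57 and -1.88 ± 0.31 (SE), of which Selp and Cdh5 did not pass with DESeq2 (adjusted p = 0.237 and 0.0554). These are the genes of endothelium, and endothelial RNA moved with them: the 17 endothelial markers summed to 202 CPM in adventitial fibroblasts, against 1166 and 832 in the descending libraries, and to 128 in adventitial macrophages, against 1358 and 935. Of these markers Kdr was at 0 in fibroblasts and macrophages of descending a, and Robo4 at 0 in macrophages of both descending libraries. Their part in the result was not tested. Vcam1 had 65.2 in adventitial fibroblasts, against 126 and 119 (log2 fold change -0.74 ± 0.21 SE, edgeR adjusted p = 0.00252), a call that ended with DESeq2 (adjusted p = 0.354).

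Cd34 was the member that fibroblasts carried above endothelium. It had 944 CPM (908 to 981) in arch fibroblasts, 479 (460 to 498) in the adventitia, 1063 (1017 to 1111) in descending a and 1072 (1036 to 1108) in descending b, and each of these exceeded the endothelium of the same library. Beside Pecam1 it took 77.7% to 97.9% of the pair in fibroblasts, against 8.95% to 19.8% in endothelium. In adventitial red-cell-like barcodes Cd34 took 76.2% (60.5 to 87.9). In adventitial over descending fibroblasts the log2 fold change was -0.99 ± 0.19 (SE, edgeR adjusted p = 2.4e-06). Mesothelial-like cells had 429.99 CPM (373 to 494) of Cd34 in the arch. In the adventitia they had 373 (339 to 411). Mcam was highest in 66 pericyte-like cells of the adventitia, at 99.8 CPM (68.2 to 141), and at most 1.61 in fibroblasts of any library. The 24 Schwann-like cells of the adventitia had 48.5 CPM (9.998 to 142), from 3 Mcam UMIs and no Pecam1 UMI. Those pericyte-like cells also had 439.5 of Pecam1 and 489 of Cdh5, and 6656 CPM over the 17 endothelial markers.

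In arch fibroblasts 1 of 7 members tested passed, Icam2, where 5.27% of the 11501 genes passed, 2.96% higher and 2.31% lower. Icam2 had 149 CPM in the arch, against 86.1 and 59.9 in the descending libraries, above both (log2 fold change 1.07 ± 0.20 SE, edgeR adjusted p = 5.3e-06). With DESeq2 its adjusted p was 0.752. The 17 endothelial markers summed to 1798 in arch fibroblasts, against 1166 and 832, and Icam2 in arch red-cell-like barcodes was 176 CPM (136 to 224). The arch effect on Icam2 was lower in endothelium than in fibroblasts, with a log2 difference of -0.79 ± 0.24 (SE, edgeR adjusted p = 0.0467 for the interaction), and the arch effect on Icam1 was lower in endothelium than in macrophages, with a log2 difference of -1.27 ± 0.33 (SE, edgeR adjusted p = 0.00736). The Icam2 difference lost its call with RLE size factors, without the count filter, with doublets kept, after thinning, with separate clustering per library and with DESeq2 (adjusted p from 0.0563 to 0.9998). The Icam1 difference lost its call with doublets kept (0.117) and with separate clustering (0.187). Each was the 1 member called in its interaction, where 2.54% and 2.15% of 12364 genes passed. For the fibroblast interaction 1.37% passed higher and 1.16% lower, and for the macrophage interaction 1.25% passed higher and 0.906% lower. The interaction for Sele and Mcam has no value, since 1 side had too few UMIs.

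The leukocyte side of these contacts was read in macrophages. Of 13 tested counter-receptors 1 rose and 1 fell in arch macrophages, where 2.61% of all genes rose and 2.82% fell. Itgax, an integrin chain of intima resident macrophages that pairs with Itgb2, had 138 CPM in the arch, against 61.3 and 51.2 (log2 fold change 1.39 ± 0.34 SE, edgeR adjusted p = 0.00225). Its value was -0.039 within the intima resident-like cluster, which took 75 of 115 macrophages in the arch, 25 of 81 in descending a and 18 of 70 in descending b and was named from markers that include Itgax. Itgam, an Icam1-binding chain of the same family, had 35.1, against 108 and 145 (log2 fold change -1.75 ± 0.35 SE, edgeR adjusted p = 5.3e-05). The Itgax call also ended without the count filter (0.0522) and after thinning (0.635), and the Itgam call with DESeq2 (0.0588), each given as an adjusted p. In adventitial macrophages 6 of 13 rose and 1 fell, beside 7.41% higher and 5.59% lower over all genes. Itgax had 3.02 CPM, against 61.3 and 51.2 (log2 fold change -3.97 ± 0.53 SE), and Cd44, which binds Sele and hyaluronan, had 178, against 55.5 and 71.1 (1.69 ± 0.29 SE). The Cd44 call ended with DESeq2 (adjusted p = 0.0933) and with separate clustering per library (edgeR adjusted p = 0.768).

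Over the 26 sums of a class in a library with at least 20 cells, the genes whose log2 level ran most like each member were named by Pearson's r among 12839 genes. The sums share libraries and depth, so r is a description. Pecam1 ran most like Tie1, an endothelial receptor (0.959), and Mall (0.954), and Cdh5 most like Tinagl1 (0.944). Vcam1 ran most like Itga9 (0.905) and Pgm5 (0.904), Icam2 like Cldn5 (0.889) and Rasip1 (0.881), and Selp like Icam2 (0.818). Cd34 ran most like Fbln2 (0.943), a matrix protein, and Fhl1 (0.939), and Mcam like Fam181b (0.924). The values for Icam1 and Sele were lower, with Rbm6 (0.774) and Tead4 (0.811) first. With a pseudocount of 10 in place of 1 the first gene changed for 8 of the 9 members, all but Cd34, so that for example Vwf came first for Vcam1 (0.928) and Pecam1 for Icam2 (0.884).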

How the data were processed

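Single-cell RNA was measured in 1 young arch intima library, 1 aged adventitia library and 2 aged descending intima libraries. The deposited files hold the authors' counts of UMIs per gene and barcode, which per the submitters' processing notes were made with Cell Ranger 2.1.2 on mm10; per the labels' protocols the libraries used the 10x Chromium Single Cell 3′ chemistry. The annotation release is not given in the sources used here. Totals were 18624525, 29370967, 13715023 and 13181305 UMIs, in the order arch, adventitia, descending a and descending b, and median UMIs per barcode were 6989, 2524, 5113 and 4808.5.

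Barcodes were kept from 200 genes up and to 10% mitochondrial UMIs. Doublet scores (Scrublet in scanpy 1.11.5) called 21, 4, 8 and 6 barcodes automatically, only 0.0471% of the adventitia, so the 50, 598, 52 and 37 highest scores were removed instead, at 0.8% per 1000 barcodes. Cells were clustered together without batch correction (10000 counts per cell, 2000 variable genes without the 9 members, 30 components, 15 neighbours, leidenalg 0.10.2 at resolution 1.0). Clusters were named from 24 marker lists, with at least 3 markers at 20% of cells and at 2 times the background level. Thinned shares use 2000 UMIs per cell and leave out shallower cells, 0, 79, 48 and 85 endothelial-like cells in the order above.

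UMI counts were summed per library and class and tested with edgeR 4.0.16 (R 4.3.3; TMM, filterByExpr, quasi-likelihood test, Benjamini-Hochberg adjustment, threshold 0.05) in a fit of 4 libraries. Only the descending pair gives a spread, which may be technical, and a lone library is assumed to vary as that pair does. Standard errors were derived from each log2 fold change and its F statistic. The interaction was fitted over 3 classes of the intimal libraries, with library as a term. The test was tried on simulated data with known changes. Mesothelial-like cells and pairs of classes were described without a test. Alternatives were other scalings, DESeq2 1.42.0, other cell filters, thinning, clustering each library alone, and single clusters.

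Named genes were the 9 members, the 3 genes most like each, and up to 4 called genes with the lowest adjusted p per list and comparison. The members and lists were chosen with earlier results of these data known.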

Additional observations from a re-analysis of the deposited data

Results flagged for a closer look

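The difference of the young arch library from the aged descending libraries, called the arch effect, differed between classes for 2 of the 9 genes. This was by the interaction term in the quasi-likelihood test of edgeR, adjusted by the Benjamini-Hochberg method. Region, age and library cannot be told apart in it. Each interaction called 1 of the 9 genes, where 2.54% (fibroblasts) and 2.15% (macrophages) of 12364 genes passed. For Icam2 the arch effect in endothelial-like minus fibroblast-like cells was -0.79 on the log2 scale (adjusted p = 0.0467). Icam2 was higher in the arch than in both descending libraries in both classes, with log2 fold changes of 0.30 in endothelial-like and 1.07 in fibroblast-like cells. In the arch, fibroblast-like cells had 149 CPM of Icam2 and red-cell-like barcodes 176. The call was lost with RLE size factors (edgeR adjusted p = 0.0563), without the filter on low counts (0.0715), with doublets kept (0.167), after thinning (0.195), with each library clustered on its own (0.587) and with DESeq2 (0.9998).

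For Icam1 the arch effect in endothelial-like minus macrophage-like cells was -1.27 on the log2 scale (edgeR adjusted p = 0.00736), from log2 fold changes of 0.24 in endothelial-like and 1.42 in macrophage-like cells. That call was lost with doublets kept (edgeR adjusted p = 0.117) and with each library clustered on its own (0.187).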

How the results depend on the processing

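No paired analysis was possible because replicate number 1 is the only number in common, which no label ties to a common animal or day. Alternatives on single clusters, without the Serpinb2 Alox15 cluster and without a TMM factor were chosen after seeing the data. Leaving out a descending library gave values with no test, since no residual degrees of freedom remained; Mcam in arch endothelium then had log2 fold changes of -1.09 to -0.95, Vcam1 in adventitial endothelium -2.79 to -2.71, and Icam2 in arch fibroblasts 0.84 to 1.30. Leaving out cells with a UMI of another class could not be fitted for macrophages or the interactions. Of the members' values under the alternatives, 725 kept direction and call, 44 lost their call, 5 gained one, 12 moved without a test and 26 changed sign.

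Genes called in arch endothelium, 1318, were 179 with DESeq2, 750 with doublets kept, 416 after thinning, 3 without cells with a UMI of another class, 79 in the Nkx2-3 Mal cluster and 377 in the Serpina1b Klk10 cluster; the 1 member called was 0 with DESeq2, without those cells and in the Nkx2-3 Mal cluster, and 2 without a count filter and at 5% mitochondrial UMIs. In adventitial endothelium 4438 genes were 2054, 2546 and 1754 with DESeq2, thinning and without those cells. In arch fibroblasts 606 genes were 322 without a TMM factor, 52 with DESeq2 (0 members), 309 with each library clustered alone, 270 after thinning and 339 without those cells. In adventitial fibroblasts 2966 genes were 620 with DESeq2 (4 members) and 1953 after thinning. In arch macrophages 397 genes and 2 members were 77 and 0 with DESeq2, 158 and 0 without a count filter, 208 and 0 with each library clustered alone, 153 and 1 after thinning, 33 and 0 in intima resident-like cells and 49 and 0 in Lyve1 resident-like cells. In adventitial macrophages 951 genes and 7 members were 187 and 2 with DESeq2, 450 and 4 with each library clustered alone, 460 and 4 after thinning and 622 and 4 in Lyve1 resident-like cells. Interaction calls, 314 against fibroblasts and 266 against macrophages, were 9 and 66 with DESeq2, 67 and 94 with each library clustered alone, and 113 and 79 after thinning.

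The cause of these changes was not tested. Log2 values that changed sign in arch endothelium were Vcam1 -0.014 without a TMM factor, -0.00064 with each library clustered alone and -0.031 in the Serpina1b Klk10 cluster; Icam1 -0.037, Emcn -0.14, Ets1 0.32 and Vcl -0.42 in the Nkx2-3 Mal cluster; Selp 0.065 after thinning, 0.074 in the Nkx2-3 Mal and 0.052 in the Serpina1b Klk10 cluster; and Cd34 0.044 without cells with a UMI of another class. In adventitial endothelium they were Icam1 -0.098 without lymphatic-like cells and Selp 0.082 at 5% mitochondrial UMIs. In arch fibroblasts they were Selp -0.98 after thinning, Cdh5 -0.045 with doublets kept and Cd34 0.080 with each library clustered alone. In arch macrophages they were Vcam1 -0.053 after thinning and -0.44 in intima resident-like cells, Pecam1 -0.024 without a TMM factor, -0.21 with each library clustered alone and -0.11 in Lyve1 resident-like cells, and Itgax -0.039 in intima resident-like cells. In adventitial macrophages they were Vcam1 0.63 and Icam2 -2.72 in Lyve1 resident-like cells, and Icam2 -2.72 without the Serpinb2 Alox15 cluster. In the interaction with fibroblasts they were Icam1 0.092 and Cd34 -0.24 with each library clustered alone and Selp 0.98 after thinning, and with macrophages Vcam1 0.035 after thinning and Cdh5 -0.22 with doublets kept. Members' calls that held but moved by over 1.5 times were Vcam1 in adventitial endothelium (-3.35 without cells with a UMI of another class, -5.22 without lymphatic-like cells) and Sele there (3.34 at 5% mitochondrial UMIs), Icam2 in adventitial fibroblasts (-2.18 after thinning), Icam1 in arch macrophages (2.31 after thinning) and its interaction with macrophages (-2.22 after thinning), and in adventitial macrophages Icam2 (2.03 at 5% mitochondrial UMIs), Pecam1 (-4.33 with doublets kept, -4.22 after thinning) and Cd34 (-1.38 with doublets kept). Sele rested on 12 to 48 UMIs per library in endothelium.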
